A study of Mus musculus with 8 samples.

Results

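The genes described here are 38 genes of the amino acid response, taken as the rows of the raw count table whose symbols belonged to a list of ATF4 and the genes it is known to control. They are 38 of 50600 genes in the table, and all 38 reached 10 counts in 2 or more of the 8 libraries, as 14497 genes did. The lines were NF1-MET, isolated from a mouse malignant peripheral nerve sheath tumor (MPNST) with amplified Met, and NF1-MET;sgP53, made from it with a CRISPR-Cas9 guide against Trp53. The tumor model carried Nf1 fl/ko, a lox-stop-loxMET transgene and Plp-creERT, in which the Plp promoter restricts the tamoxifen-inducible Cre to the Schwann lineage, and all of this is common to the 4 conditions. The labels give the genotypes as WT for NF1-MET and Trp53 KO for NF1-MET;sgP53. Cells in medium with 10% FBS received DMSO (vehicle) or 100 nM of the MET kinase inhibitor capmatinib for 24 h, with 2 replicates per condition. Each genotype was 1 line, so loss of p53 cannot be told apart from other differences between the lines. The count columns of NF1-MET carry codes (SEVV and SEVC) whose meaning was not given. The methods of the study describe NF1-MET cells given the vector without a guide as a control, and whether these libraries came from them was not given.

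ATF4 is a transcription factor whose mRNA is translated efficiently when the initiation factor eIF2 is phosphorylated, which happens under amino acid shortage, endoplasmic reticulum stress and other stresses. With CEBP-family partners it activates genes for amino acid synthesis, amino acid uptake and tRNA charging, and genes such as Ddit3 and Trib3 that feed back on the response. Because ATF4 is set in large part by translation and protein stability, its mRNA is an incomplete readout of its activity, and no protein was measured in these libraries.

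Trp53, the targeted gene, was at 182 and 193 CPM (counts scaled to a common library size) in vehicle and 126 and 128 in capmatinib in NF1-MET, and at 97.5 and 100 in vehicle and 68 and 68.8 in capmatinib in NF1-MET;sgP53. It was lower in the knockout line in both treatments, although a guide that cuts coding sequence need not remove the mRNA. Met was at 352 and 362 CPM in vehicle and 230 and 232 in capmatinib in NF1-MET, and at 344 and 342 in vehicle and 249 and 246 in capmatinib in NF1-MET;sgP53. The libraries held 30.1 M to 42.8 M counts, and the 38 genes took 0.543% to 0.676% of them. The noncoding gene Gm42418 took 1.11% to 13.1% of a library, with the lowest share in NF1-MET;sgP53 capmatinib replicate 2. Among Schwann and neural crest markers, Sox10, S100b, Ngfr, Erbb3, Cdh19 and Gfap were under 1 CPM in every library. Other genes of that list were expressed, with Nes at 427 to 473 CPM, Sox2 at 22.5 to 154, Sox9 at 16 to 66 and Gap43 at 2.79 to 21.7. Summed Schwann markers were 625 to 669 CPM in vehicle and 507 to 516 CPM in capmatinib, and summed fibroblast markers were 3010 to 3980 and 16000 to 16300 CPM. Most of the fibroblast sum was Col1a1, at 2410 to 15500 CPM over the libraries, Pdgfra was at 324 to 449 and Pdgfrb at 178 to 474, while Dcn was at 0.547 to 1.63, Thy1 at 0.689 to 4.08 and Lum at up to 0.0284 CPM. The leukocyte, endothelial and epithelial lists summed to at most 2.12, 0.358 and 0.727 CPM. The part of these shifts in the results for the amino acid response was not tested, and in bulk RNA fewer cells of a type and less RNA per cell cannot be told apart.

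Levels between genes were compared as FPKM, which divides CPM by the exon length of a gene, averaged over the 8 libraries. The length counts every annotated exon base (13922 for Slc7a11), so the order depends on the annotation and differs from that by CPM. The order was led by Atf4 at 169 FPKM, Atf5 at 120 FPKM and the synthetase genes Gars and Nars at 106 and 105 FPKM. The members lowest by FPKM were Stc2 at 2.89, the cystine transporter gene Slc7a11 at 2.04 and the cationic amino acid transporter gene Slc7a3 at 0.486 FPKM. Replicates of a condition differed by a median of 0.0232 to 0.0356 on the log2 scale over the 38 genes. The largest replicate difference was 0.39, for Cebpb in NF1-MET vehicle.

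Promoters are shown for 7 members whose upstream sequence held the core of the CEBP-ATF response element, the composite site bound by ATF4 with a CEBP partner. RefSeq promoters (GRCm38.p6, the same assembly as mm10) were found for 31 of the 38 genes, and the 250 bases before the start were searched for TGATGNAA on both strands, which reads TTNCATCA on the other strand. The motif was present in 8 of 31 members (25.8%) and in 3.91% of 27025 genes with a promoter. The exact form TGATGCAA was present in 5 of 31 members (16.1%) against 0.918% of genes. Within 100 bases of the start the shares were 3 of 31 (9.68%) and 1.74%. Each sequence runs 5′ to 3′ on the strand of its gene with the motif in capitals, and a match is a description of these letters, not evidence of binding. Short windows are given for Asns and Nupr1, where the motif lies inside an annotated exon (GENCODE M21).
The asparagine synthetase gene Asns (chr6:7693215-7693242, minus strand) held the motif at positions -23 to -16 from the start.
Asns: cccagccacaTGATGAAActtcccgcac
The glutathione-degrading enzyme gene Chac1 (chr2:119351003-119351102, plus strand) held it at -193 to -186.
Chac1: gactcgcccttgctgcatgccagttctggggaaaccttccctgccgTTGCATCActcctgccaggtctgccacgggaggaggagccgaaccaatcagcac
The glycyl-tRNA synthetase gene Gars (chr6:55037925-55038000, plus strand) held it at -30 to -23.
Gars: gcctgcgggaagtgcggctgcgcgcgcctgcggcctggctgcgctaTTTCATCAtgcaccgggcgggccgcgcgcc
The stress-induced nuclear protein gene Nupr1 (chr7:126625563-126625590, minus strand) held it at -110 to -103.
Nupr1: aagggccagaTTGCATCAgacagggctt
The mitochondrial phosphoenolpyruvate carboxykinase gene Pck2 (chr14:55540117-55540216, plus strand) held it at -103 to -96.
Pck2: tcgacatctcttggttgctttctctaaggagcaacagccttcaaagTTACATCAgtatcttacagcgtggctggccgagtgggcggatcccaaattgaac
The proline synthesis gene Pycr1 (chr11:120643798-120643897, minus strand) held it at -103 to -96.
Pycr1: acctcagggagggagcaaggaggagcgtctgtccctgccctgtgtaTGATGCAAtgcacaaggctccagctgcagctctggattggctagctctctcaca
Slc7a11 (chr3:50443615-50443725, minus strand) held 2 motifs, at -66 to -59 and at -47 to -40, on opposite strands.
Slc7a11: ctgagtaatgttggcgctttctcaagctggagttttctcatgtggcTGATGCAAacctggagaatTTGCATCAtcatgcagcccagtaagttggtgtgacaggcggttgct

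**Figure D1:**
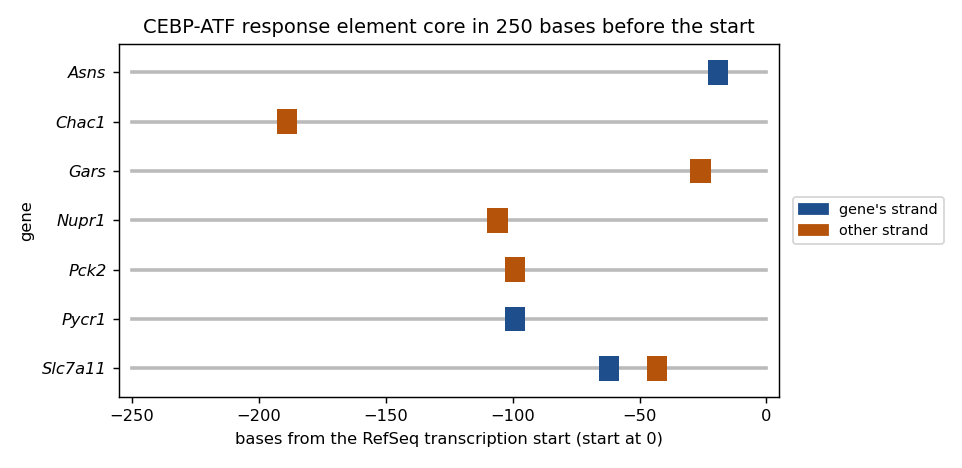
Position of the CEBP-ATF response element core in the 250 bases before the RefSeq start of 7 genes, with the distance from the start in bases on the x axis and 1 row per gene. Blue blocks are on the strand of the gene and orange blocks on the other strand, and Slc7a11 has 1 of each.

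The first comparison asked how capmatinib changed these genes in each line. In NF1-MET, capmatinib raised 27 of the 38 genes and lowered 9 (edgeR quasi-likelihood test, adjusted p under 0.05), where 35.5% of all genes tested were called higher and 34.7% lower. In NF1-MET;sgP53, 22 were higher and 9 lower, where 34.2% and 33.4% of all genes were. At least 2-fold rises were seen in 11 members in NF1-MET (11.5% of all genes) and in 9 in NF1-MET;sgP53 (10.4%). At least 2-fold falls were seen in 1 member in each line (5.35% and 5.02% of all genes), and that member was Shmt1. The median log2 fold change over the 38 genes was 0.26 in NF1-MET, where that of all genes was 0.002, and NF1-MET;sgP53 had 0.19, where that of all genes was 0.0049. When libraries were scaled by their totals, the median of all genes moved to -0.18 and -0.12 and that of the 38 genes to 0.08 and 0.07. With this scaling 17 members were called higher and 12 lower in NF1-MET, where 24.2% and 44% of all genes were. NF1-MET;sgP53 then had 16 higher and 9 lower, where 22.5% and 34% of all genes were. The capmatinib calls lost or turned by this scaling are named beside their genes.

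**Figure D2:**
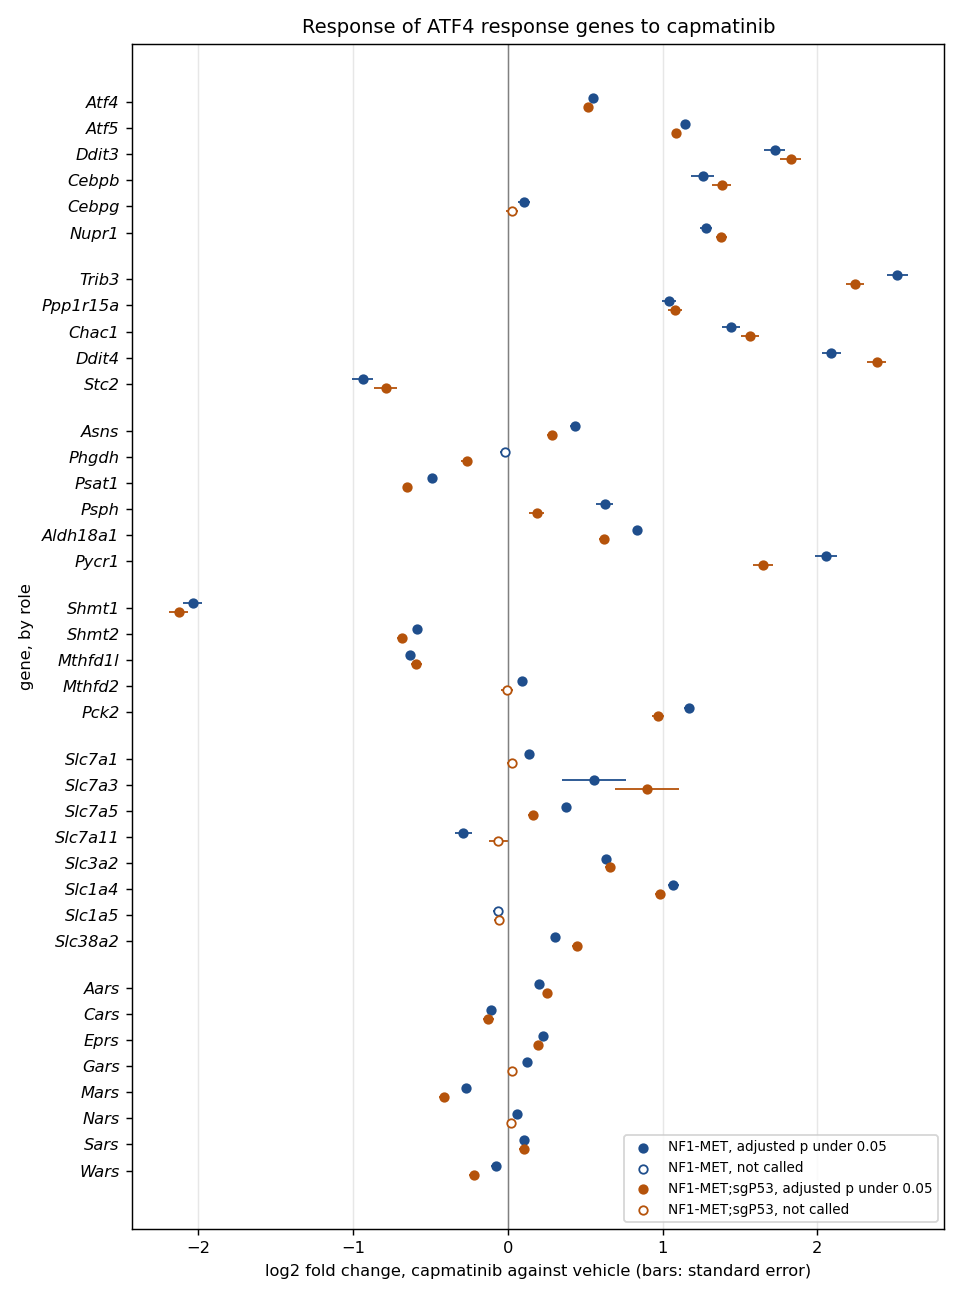
Log2 fold change of the 38 genes in capmatinib against vehicle (x axis, bars are standard errors) by gene and role (y axis), in NF1-MET (blue) and NF1-MET;sgP53 (orange). Filled points passed an adjusted p of 0.05, and values lie between -2.04 and 2.52 in NF1-MET and between -2.13 and 2.38 in NF1-MET;sgP53. With scaling by library totals, Cebpg, Mthfd2, Slc7a1, Gars, Nars and Sars fall below 0 in NF1-MET, and Cebpg, Slc7a1, Gars, Nars and Sars do so in NF1-MET;sgP53.

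Of the 6 transcription regulators, NF1-MET had 6 higher in capmatinib and NF1-MET;sgP53 had 5. Atf4 is a protein-coding gene on chr15:80255184-80257541 (mm10, plus strand). Atf4 was at 322 and 323 CPM in vehicle and 476 and 477 in capmatinib in NF1-MET, and at 330 and 320 in vehicle and 467 and 464 in capmatinib in NF1-MET;sgP53. All 4 capmatinib libraries were above all 4 vehicle libraries. The log2 fold change was 0.55 ± 0.02 (SE) in NF1-MET (adjusted p = 2.68e-20) and 0.52 ± 0.03 in NF1-MET;sgP53 (adjusted p = 3.87e-13), a rise of 1.46-fold and 1.43-fold. Atf5, a related factor that is also controlled by translation, was at 148 and 152 CPM in vehicle and 341 and 331 in capmatinib in NF1-MET, and at 152 and 149 in vehicle and 317 and 323 in capmatinib in NF1-MET;sgP53. Its rise was 2.21-fold in NF1-MET, against 2.13-fold in NF1-MET;sgP53.

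Ddit3 encodes CHOP, the factor linked to stress-induced cell death. It was at 9.53 and 10.6 CPM in vehicle and 33.6 and 33.7 in capmatinib in NF1-MET, and at 9.14 and 10.5 in vehicle and 34 and 36.1 in capmatinib in NF1-MET;sgP53. The rises were 3.3-fold (log2 1.72 ± 0.07, adjusted p = 3.96e-21) and 3.55-fold (1.83 ± 0.07, adjusted p = 6.22e-16), the largest of this group in each line. Ddit3 shares 68 exonic bases with Mars on the opposite strand, whose part in its counts was not tested. Nupr1 was at 40 and 37.9 CPM in vehicle and 97.8 and 93.9 in capmatinib in NF1-MET, and at 37 and 35.8 in vehicle and 95.1 and 94 in capmatinib in NF1-MET;sgP53. It rose 2.43-fold and 2.6-fold. Cebpb encodes a CEBP partner of ATF4, and it was at 22.9 and 17.5 CPM in vehicle and 44.4 and 52.2 in capmatinib in NF1-MET, and at 19.3 and 18.6 in vehicle and 45.7 and 52.9 in capmatinib in NF1-MET;sgP53. The capmatinib libraries did not overlap the vehicle libraries, with log2 fold changes of 1.26 ± 0.07 and 1.38 ± 0.06. Cebpb shares 312 exonic bases with Tmem189 on the opposite strand, and among other members Cars shares 211 with Gm15580, Shmt1 184 with Smcr8 and Atf5 82 with Nup62, and the part of these in the counts was not tested. Cebpg, the other CEBP partner in the list, passed the test in NF1-MET at 0.10 ± 0.04 (adjusted p = 0.0154) and was at 0.03 ± 0.04 in NF1-MET;sgP53 (adjusted p = 0.543), and both values fell below 0 with library totals. Its call in NF1-MET held in 9 of 13 alternatives.

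The 5 feedback and stress effectors held the largest rises of all 38 genes, with 4 higher and 1 lower in each line. Trib3 encodes a pseudokinase that inhibits ATF4 and AKT. It was at 7.22 and 7.8 CPM in vehicle and 44.6 and 42.6 in capmatinib in NF1-MET, and at 10.2 and 10.7 in vehicle and 48.5 and 50.8 in capmatinib in NF1-MET;sgP53. This was 5.72-fold in NF1-MET (log2 2.52 ± 0.07, adjusted p = 1.37e-25) and 4.73-fold in NF1-MET;sgP53 (2.24 ± 0.06, adjusted p = 4.54e-19). Ddit4 encodes REDD1, an inhibitor of mTORC1. It was at 10.4 and 10.4 CPM in vehicle and 44.6 and 44.7 in capmatinib in NF1-MET, and at 8.03 and 8.78 in vehicle and 44.9 and 43.1 in capmatinib in NF1-MET;sgP53. Ddit4 rose 4.26-fold and 5.21-fold, so the capmatinib levels of the lines overlapped while the vehicle levels did not.

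Chac1 was at 13.4 and 13.7 CPM in vehicle and 37.4 and 37.1 in capmatinib in NF1-MET, and at 14.3 and 13.5 in vehicle and 40.9 and 41.2 in capmatinib in NF1-MET;sgP53, rises of 2.71-fold and 2.96-fold. Ppp1r15a encodes GADD34, the phosphatase subunit that reverses eIF2 phosphorylation. It was at 30 and 28.8 CPM in vehicle and 60.6 and 61.5 in capmatinib in NF1-MET, and at 28 and 27.3 in vehicle and 60.3 and 56.3 in capmatinib in NF1-MET;sgP53. It rose 2.06-fold and 2.11-fold. Stc2, a secreted glycoprotein gene, went the other way, at 21.1 and 22.3 CPM in vehicle and 11.4 and 11.5 in capmatinib in NF1-MET, and at 17 and 17 in vehicle and 9.7 and 9.92 in capmatinib in NF1-MET;sgP53. Its log2 fold changes were -0.94 ± 0.07 (adjusted p = 1.63e-13) and -0.79 ± 0.08 (adjusted p = 5.27e-09), the only falls in the group in either line.

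**Figure D3:**
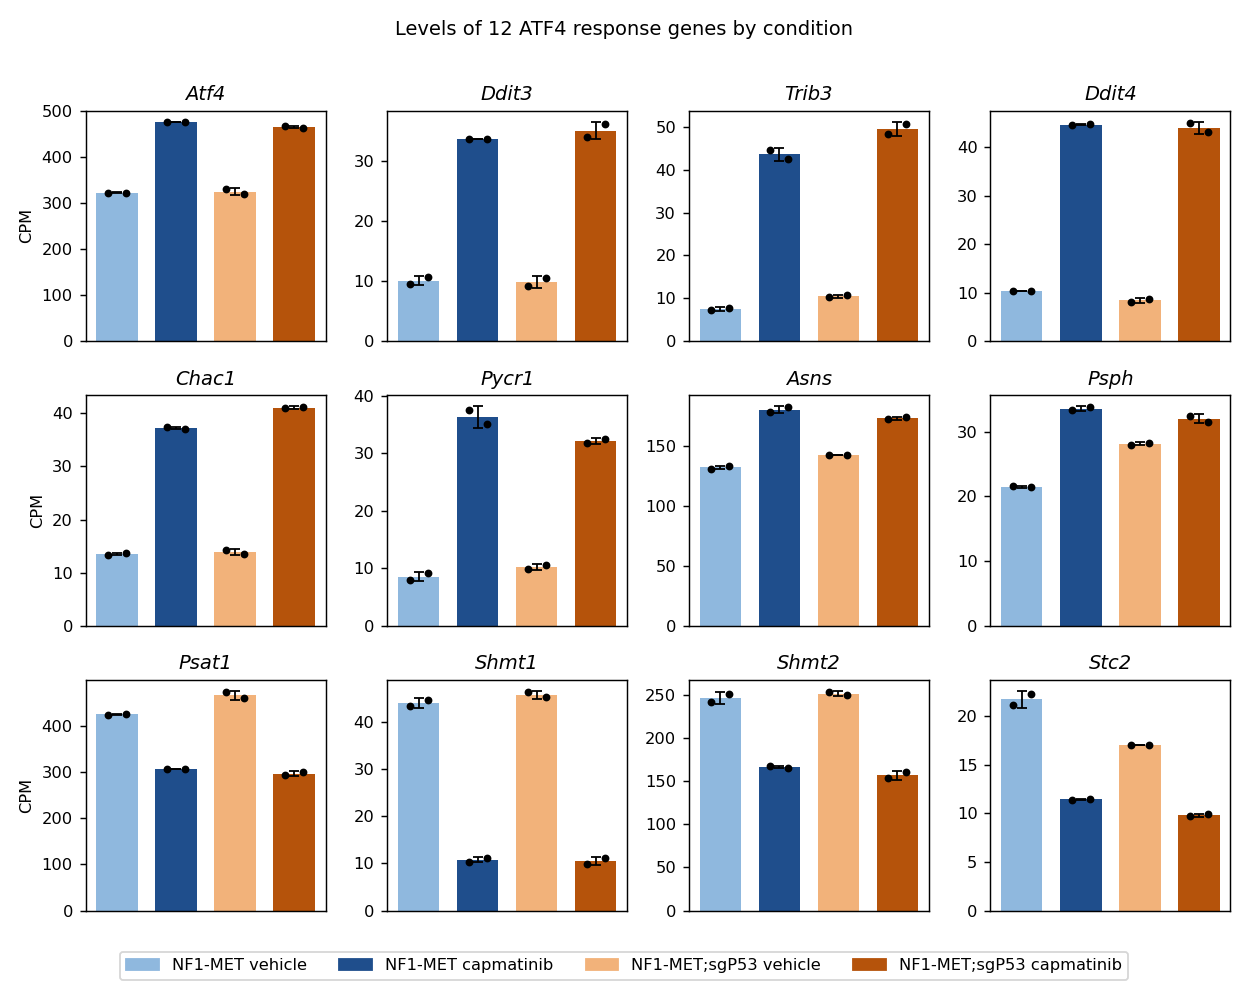
Level of 12 of the genes in CPM (y axis, from 0) in the 4 conditions, where bars are means, error bars are SD (n = 2) and points are the libraries. Trib3 rises from 7.22 and 7.8 to 44.6 and 42.6 CPM in NF1-MET, while Shmt1 falls from 43.3 and 44.7 to 10.4 and 11.2 CPM.

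Of the 6 amino acid synthesis genes, 4 were higher and 1 lower in NF1-MET, while NF1-MET;sgP53 had 4 higher and 2 lower. Both proline synthesis genes rose. Pycr1, for the reductase of the last step, was at 8.02 and 9.13 CPM in vehicle and 37.6 and 35 in capmatinib in NF1-MET, and at 9.86 and 10.6 in vehicle and 31.7 and 32.5 in capmatinib in NF1-MET;sgP53. It rose 4.16-fold (log2 2.06 ± 0.07, adjusted p = 1.49e-22) and 3.13-fold (1.65 ± 0.07, adjusted p = 1.22e-15), and the groups did not overlap. Aldh18a1, which encodes the enzyme of the first steps from glutamate, rose 1.79-fold and 1.53-fold. Asns was at 131 and 133 CPM in vehicle and 178 and 182 in capmatinib in NF1-MET, and at 142 and 142 in vehicle and 172 and 174 in capmatinib in NF1-MET;sgP53, rises of 1.35-fold and 1.22-fold. The rise in the knockout line was not called with library totals (log2 0.16, adjusted p = 0.192).

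The 3 genes of serine synthesis differed from each other. Phgdh, for the dehydrogenase of the first step, was at 114 and 118 CPM in vehicle and 115 and 118 in capmatinib in NF1-MET, and at 134 and 132 in vehicle and 109 and 112 in capmatinib in NF1-MET;sgP53. The NF1-MET groups overlapped (log2 -0.02 ± 0.03, adjusted p = 0.574), while in NF1-MET;sgP53 its log2 fold change was -0.27 ± 0.03 (adjusted p = 4.96e-07). With library totals Phgdh was called lower in NF1-MET too, at -0.21 (adjusted p = 0.000732). Psat1, for the aminotransferase of the next step, was at 424 and 425 CPM in vehicle and 306 and 306 in capmatinib in NF1-MET, and at 472 and 459 in vehicle and 293 and 300 in capmatinib in NF1-MET;sgP53. It fell in both lines, with log2 fold changes of -0.49 ± 0.02 (adjusted p = 7.68e-19) and -0.65 ± 0.03 (adjusted p = 1.01e-14). Psph, for the phosphatase of the final step, rose instead, from 21.6 and 21.4 to 33.3 and 33.8 CPM in NF1-MET and from 28 and 28.3 to 32.5 and 31.5 CPM in NF1-MET;sgP53. The rises were 1.54-fold and 1.14-fold, the latter not called with library totals (log2 0.06, adjusted p = 0.666) and called in 11 of 13 alternatives. Psph shares 452 exonic bases with Cct6a on the opposite strand, whose part in its counts was not tested.

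In the group of folate enzymes and Pck2, 2 of 5 were higher and 3 lower in NF1-MET, while NF1-MET;sgP53 had 1 higher and 3 lower. Shmt1, Shmt2 and Mthfd1l fell in both lines. Shmt1, the cytosolic serine hydroxymethyltransferase gene, was at 43.3 and 44.7 CPM in vehicle and 10.4 and 11.2 in capmatinib in NF1-MET, and at 46.3 and 45.2 in vehicle and 9.87 and 11.1 in capmatinib in NF1-MET;sgP53. Its log2 fold changes were -2.04 ± 0.06 (adjusted p = 5.4e-24) and -2.13 ± 0.06 (adjusted p = 3.29e-18), 4.1-fold and 4.37-fold lower. Shmt2, the mitochondrial counterpart, was at 241 and 251 CPM in vehicle and 167 and 165 in capmatinib in NF1-MET, and at 253 and 249 in vehicle and 153 and 160 in capmatinib in NF1-MET;sgP53. It was 1.5-fold and 1.6-fold lower. Mthfd1l, the mitochondrial formyltetrahydrofolate synthetase gene, was 1.55-fold and 1.51-fold lower.

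Mthfd2, for the mitochondrial methylenetetrahydrofolate dehydrogenase, did not share this fall. It was at 101 and 103 CPM in vehicle and 108 and 112 in capmatinib in NF1-MET, and at 115 and 109 in vehicle and 112 and 110 in capmatinib in NF1-MET;sgP53. Its log2 fold changes were 0.09 ± 0.03 (adjusted p = 0.00649 and called in 10 of 13 alternatives, but -0.09 with library totals) and -0.01 ± 0.04 (adjusted p = 0.878). Pck2 rose, from 68.4 and 69.1 to 158 and 155 CPM in NF1-MET and from 82.7 and 78.3 to 153 and 162 CPM in NF1-MET;sgP53. This was 2.25-fold (log2 1.17 ± 0.03, adjusted p = 6.52e-26) and 1.96-fold (0.97 ± 0.04, adjusted p = 1.27e-15).

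Of the 8 transporters, 6 were called higher in NF1-MET, against 5 in NF1-MET;sgP53. Slc1a4, a neutral amino acid exchanger gene, had the largest rise of the group, from 47.9 and 48.9 to 103 and 103 CPM in NF1-MET and from 54.3 and 53.1 to 106 and 106 CPM in NF1-MET;sgP53, which was 2.1-fold and 1.98-fold. Slc3a2, for the heavy chain of the heteromeric exchangers, was at 143 and 150 CPM in vehicle and 231 and 231 in capmatinib in NF1-MET, and at 153 and 153 in vehicle and 239 and 243 in capmatinib in NF1-MET;sgP53, or 1.55-fold and 1.58-fold. Its light chains moved unequally. Slc7a5, for the leucine exchanger LAT1, was at 212 and 212 CPM in vehicle and 281 and 276 in capmatinib in NF1-MET, and at 266 and 258 in vehicle and 287 and 299 in capmatinib in NF1-MET;sgP53, with log2 fold changes of 0.38 ± 0.02 (adjusted p = 3.17e-15) and 0.16 ± 0.03 (adjusted p = 0.000103). The latter was at 0.04 with library totals (adjusted p = 0.776). Slc7a11, for the cystine exchanger, was at 30.3 and 31.8 CPM in vehicle and 25.4 and 26.1 in capmatinib in NF1-MET, and at 31.1 and 27.1 in vehicle and 27.7 and 27.9 in capmatinib in NF1-MET;sgP53. It fell by 0.29 on the log2 scale in NF1-MET (adjusted p = 2.15e-05), while the groups overlapped in NF1-MET;sgP53 (-0.06 ± 0.06, adjusted p = 0.384). Its promoter window was the one with 2 motifs.

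Slc7a3 was the least abundant member, at 1.41 and 1.48 CPM in vehicle and 2.17 and 2.13 in capmatinib in NF1-MET, and at 1.34 and 1.29 in vehicle and 2.35 and 2.54 in capmatinib in NF1-MET;sgP53. It rose by 0.56 ± 0.21 on the log2 scale (adjusted p = 0.0173) and 0.90 ± 0.21 (adjusted p = 0.000605), and its errors were the widest of the 38 genes. In NF1-MET it was not called with library totals (0.37, adjusted p = 0.123), and its call held in 8 of 13 alternatives. Slc38a2, for the glutamine transporter SNAT2, rose 1.23-fold and 1.36-fold, and its rise in NF1-MET was not called with library totals (log2 0.12, adjusted p = 0.0594). Slc7a1, a cationic amino acid transporter gene, passed the test in NF1-MET at 0.14 ± 0.03 (adjusted p = 2.89e-05, but -0.05 with library totals) and was at 0.03 ± 0.03 in NF1-MET;sgP53 (adjusted p = 0.488). Slc1a5, for the glutamine transporter ASCT2, passed in neither line, at -0.06 ± 0.03 in each (adjusted p = 0.098 and 0.151). With library totals Slc1a5 was called lower in NF1-MET, at -0.25 (adjusted p = 7.23e-05).

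The 8 tRNA synthetase genes, which charge tRNAs with their amino acids, changed least, with medians of 0.08 in NF1-MET, against 0.02 in NF1-MET;sgP53. With library totals both medians turned below 0, to -0.10 in each line. In NF1-MET 5 were called higher (Aars, Eprs, Gars, Nars and Sars) and 3 lower (Cars, Mars and Wars), and with library totals Aars (0.02, adjusted p = 0.81) and Eprs (0.04, adjusted p = 0.528) were no longer called, Gars and Sars were below 0 and Nars was called lower (-0.13, adjusted p = 0.0364). Of 13 alternatives the call of Nars held in 10 and that of Wars (-0.08, adjusted p = 0.0229) in 7, with adjusted p up to 0.147 for Wars. In NF1-MET;sgP53 3 were higher (Aars, Eprs and Sars, none of which was called with library totals, where Sars was below 0) and Cars, Mars and Wars were lower. Mars, for methionyl-tRNA synthetase, moved most, at 150 and 150 CPM in vehicle and 123 and 128 in capmatinib in NF1-MET, and at 157 and 155 in vehicle and 116 and 118 in capmatinib in NF1-MET;sgP53. Its log2 fold changes were -0.27 ± 0.03 (adjusted p = 6.77e-10) and -0.41 ± 0.03 (adjusted p = 2.18e-10). Aars, for alanyl-tRNA synthetase, rose by 0.20 ± 0.02 and 0.25 ± 0.03, and shares 1326 exonic bases with Exosc6 on the same strand. Gars was at 306 and 300 CPM in vehicle and 338 and 329 in capmatinib in NF1-MET, and at 342 and 333 in vehicle and 345 and 343 in capmatinib in NF1-MET;sgP53, so its level in NF1-MET;sgP53 vehicle overlapped that of NF1-MET capmatinib.

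**Figure D4:**
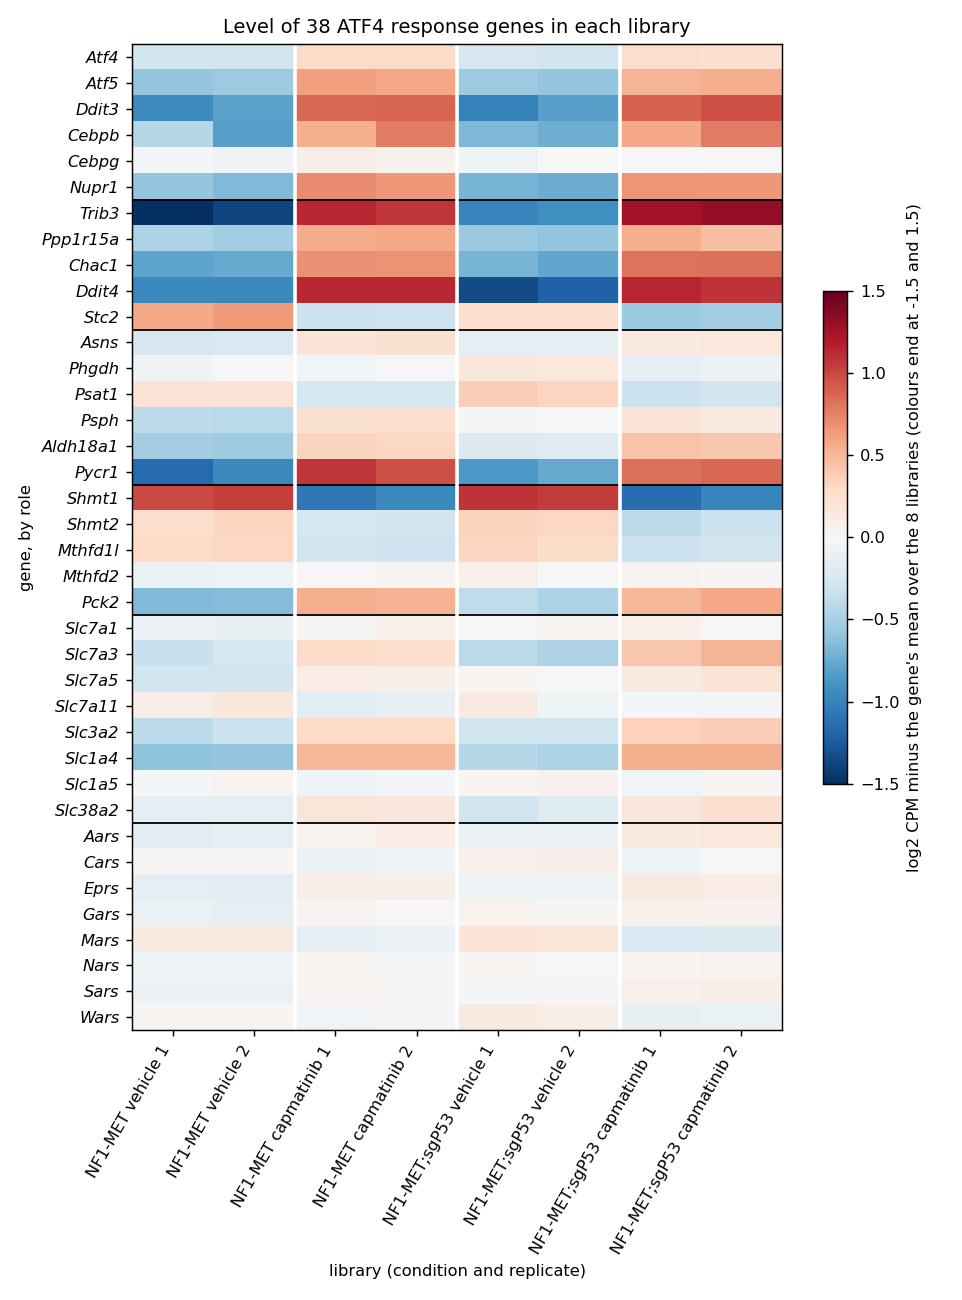
Level of the 38 genes (rows, by role) in the 8 libraries (columns), as log2 CPM minus the mean of each gene over the libraries, with red above and blue below the mean. Most regulators and stress effectors are blue in vehicle and red in capmatinib in both lines, and Stc2, Psat1, Shmt1, Shmt2 and Mthfd1l show the opposite.

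Genes outside the 38 were described from 8 related lists, whose counts stand against 35.5% of all genes higher and 34.7% lower in the NF1-MET line and, for the knockout line, 34.2% higher and 33.4% lower. Counts with library totals were not made for these lists. Of 27 further reported ATF4 targets, 16 were higher and 5 lower in NF1-MET, while NF1-MET;sgP53 had 16 higher and 6 lower. Their medians were 0.51 and 0.48 (0.33 and 0.36 with library totals). The largest change among those called was in Fgf21, a stress hormone gene, at 3.04 (adjusted p = 0.00297) and 3.58 (adjusted p = 0.000133) on the log2 scale. Of 18 other amino acid transporters tested, 12 were higher and 3 lower in NF1-MET, led by the neutral transporter gene Slc43a2 at 2.25, and 13 and 3 in NF1-MET;sgP53, led by the glutamate transporter gene Slc1a2 at 4.11.

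Of 14 other cytosolic synthetases, 12 were lower in each line, led by the arginyl synthetase gene Rars at -1.01 and -0.88. The medians were -0.32 and -0.30 (-0.51 and -0.43 with library totals). Of 17 mitochondrial synthetases, NF1-MET had 8 lower, 1 higher and 8 not called, and NF1-MET;sgP53 had 11 lower. Lars2 was the largest change in NF1-MET, at 1.00, and Yars2 was the largest in NF1-MET;sgP53, at -0.66. Of 19 other folate and one-carbon enzymes tested, 13 and 14 were lower, while Aldh1l1, for cytosolic formyltetrahydrofolate dehydrogenase, had the largest change, at 1.79 and 1.73.

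Of 18 genes for eIF2 kinases, eIF2B and their regulators, 4 were higher and 11 lower in NF1-MET, while NF1-MET;sgP53 had 5 higher and 11 lower, led by the eIF2B subunit gene Eif2b3 at -0.65 and -0.80. In the ATF6 and IRE1 arm of the unfolded protein response, 6 of 20 genes were higher and 8 lower in NF1-MET, while NF1-MET;sgP53 had 9 higher and 6 lower. Herpud1, an endoplasmic reticulum degradation gene, was highest there, at 0.80 and 0.83. Of 23 mTORC1 and amino acid sensing genes tested, 10 were higher and 7 lower in NF1-MET, led by the arginine sensor gene Castor1 at 1.26, and 10 and 6 in NF1-MET;sgP53, led by the Rag GTPase gene Rragd at -1.10. The counts of these last 2 lists lay near the shares over all genes.

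The second comparison asked how the p53-deficient line differed without drug. In vehicle, 12 of the 38 genes were higher and 3 lower in NF1-MET;sgP53 than in NF1-MET, where 10.9% and 12.3% of all genes were called. DESeq2's Wald test and edgeR with library totals each left 1 member lower, where 1089 and 743 of 14484 genes were lower. No member reached 2-fold. Of the 6 synthesis genes, Asns, Phgdh, Psat1, Psph and Aldh18a1 were called higher, by 0.08 ± 0.03 (Asns, adjusted p = 0.0408) to 0.37 ± 0.05 (Psph, adjusted p = 3.48e-05) on the log2 scale. The call of Asns held in 6 of 13 alternatives, with adjusted p up to 0.245. Pycr1 was at 0.24 ± 0.09 (adjusted p = 0.0659). The vehicle libraries of Psph, at 21.6 and 21.4 CPM in NF1-MET and 28 and 28.3 CPM in NF1-MET;sgP53, did not overlap.

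Trib3 had the largest difference in vehicle, at 0.46 ± 0.09 (adjusted p = 0.000553). Slc7a5 was 1.22-fold higher (log2 0.29 ± 0.03, adjusted p = 7.61e-08), and Pck2 1.15-fold higher. The other called rises were Mthfd2, Slc7a1, Slc1a4 and Gars, between 0.10 and 0.13 on the log2 scale. Of 13 alternatives the calls of Mthfd2 and Slc1a4 each held in 9, that of Slc7a1 in 11 and that of Psat1 in 12, and library totals ended all 4 (adjusted p = 0.0951, 0.0684, 0.107 and 0.0957). The 3 lower genes were Stc2 at -0.38 ± 0.06 (adjusted p = 0.000134), Ddit4 at -0.32 ± 0.09 (adjusted p = 0.0101) and Slc38a2 at -0.12 ± 0.03 (adjusted p = 0.00755), of which the calls of Ddit4 and Slc38a2 each held in 9 of 13 alternatives. The transcription regulators lay between -0.12 and -0.0019, with Atf4 at -0.01 ± 0.03 (adjusted p = 0.858) and Nupr1 at -0.12 ± 0.05 (adjusted p = 0.0785).

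In capmatinib the lines differed in fewer members and in fewer of all genes than in vehicle, and the member counts lay near the shares over all genes. Trib3 (0.19 ± 0.04, adjusted p = 0.00636) and Chac1 (0.14 ± 0.04, adjusted p = 0.0419) were called higher in NF1-MET;sgP53, where 5.94% of all genes were. Pycr1 (-0.17 ± 0.05, adjusted p = 0.0323) and Mars (-0.10 ± 0.03, adjusted p = 0.0461) were called lower, where 6.34% of all genes were. Of 13 alternatives the call held in 11 for Trib3, 7 for Pycr1, 6 for Mars and 4 for Chac1. At an unadjusted p under 0.05, edgeR had 6 members higher and 7 lower, where 11.7% and 12.2% of all genes were. DESeq2's Wald test called 0 members in either direction, where 428 of 14481 genes were higher and 420 lower. With library totals edgeR also called 0 members, where 537 genes were higher and 129 lower. With that scaling the median of all genes moved to 0.11 and Mars was at 0.02.

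The interaction asked whether the capmatinib effect itself differed between the lines. The log2 effect was lower in NF1-MET;sgP53 for 11 of the 38 genes, where 5.86% of all genes were called lower. A lower value is a smaller rise or a larger fall. In the other direction edgeR called 0 members, where 3.85% of all genes were called higher, with 3 members at an unadjusted p under 0.05 (8.64% of all genes), and DESeq2's Wald test also called 0. All 6 synthesis genes were among the 11, at -0.46 ± 0.07 for Psph (adjusted p = 9.04e-05), -0.43 ± 0.10 for Pycr1 (adjusted p = 0.00633), -0.26 ± 0.04 for Phgdh (adjusted p = 0.000238), -0.24 ± 0.04 for Aldh18a1 (adjusted p = 0.000297), -0.18 ± 0.04 for Psat1 (adjusted p = 0.00181) and -0.16 ± 0.04 for Asns (adjusted p = 0.0112). The others were Trib3 at -0.29, Slc7a5 at -0.23, Pck2 at -0.22, Mars at -0.16 and Wars at -0.16. Over 16 alternatives each of the 11 kept its direction, and the call held in 15 for Psph, Phgdh, Aldh18a1, Psat1, Pck2 and Slc7a5, in 13 for Pycr1, in 11 for Asns, in 8 for Mars, in 5 for Wars and in 3 for Trib3. The interaction is computed from the same libraries as the comparisons above and is not a separate observation.

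With library totals, edgeR called 0 members in either direction in the interaction, where 192 of 14497 genes were higher and 123 lower. Psph was then at -0.38 (adjusted p = 0.108), Pycr1 at -0.35 (adjusted p = 0.27) and the other 9 between -0.21 and -0.08. DESeq2's Wald test called 8 members lower, where 430 genes were lower. Without Gm42418, 7 members were lower and 2 were higher, where 873 of all genes were higher. The 2 members higher lay near that share. Gm42418 took 10.1% and 5.29% of counts in NF1-MET vehicle, 11.5% and 13.1% in NF1-MET capmatinib, 7.89% and 3.16% in NF1-MET;sgP53 vehicle and 10% and 1.11% in NF1-MET;sgP53 capmatinib. Among the regulators, Atf4 was at -0.05 ± 0.04 (adjusted p = 0.5), Ddit3 at 0.08 ± 0.10 (adjusted p = 0.693) and Cebpg at -0.09 ± 0.05 (adjusted p = 0.31). Ddit4 was at 0.27 ± 0.09 (adjusted p = 0.0521).

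**Figure D5:**
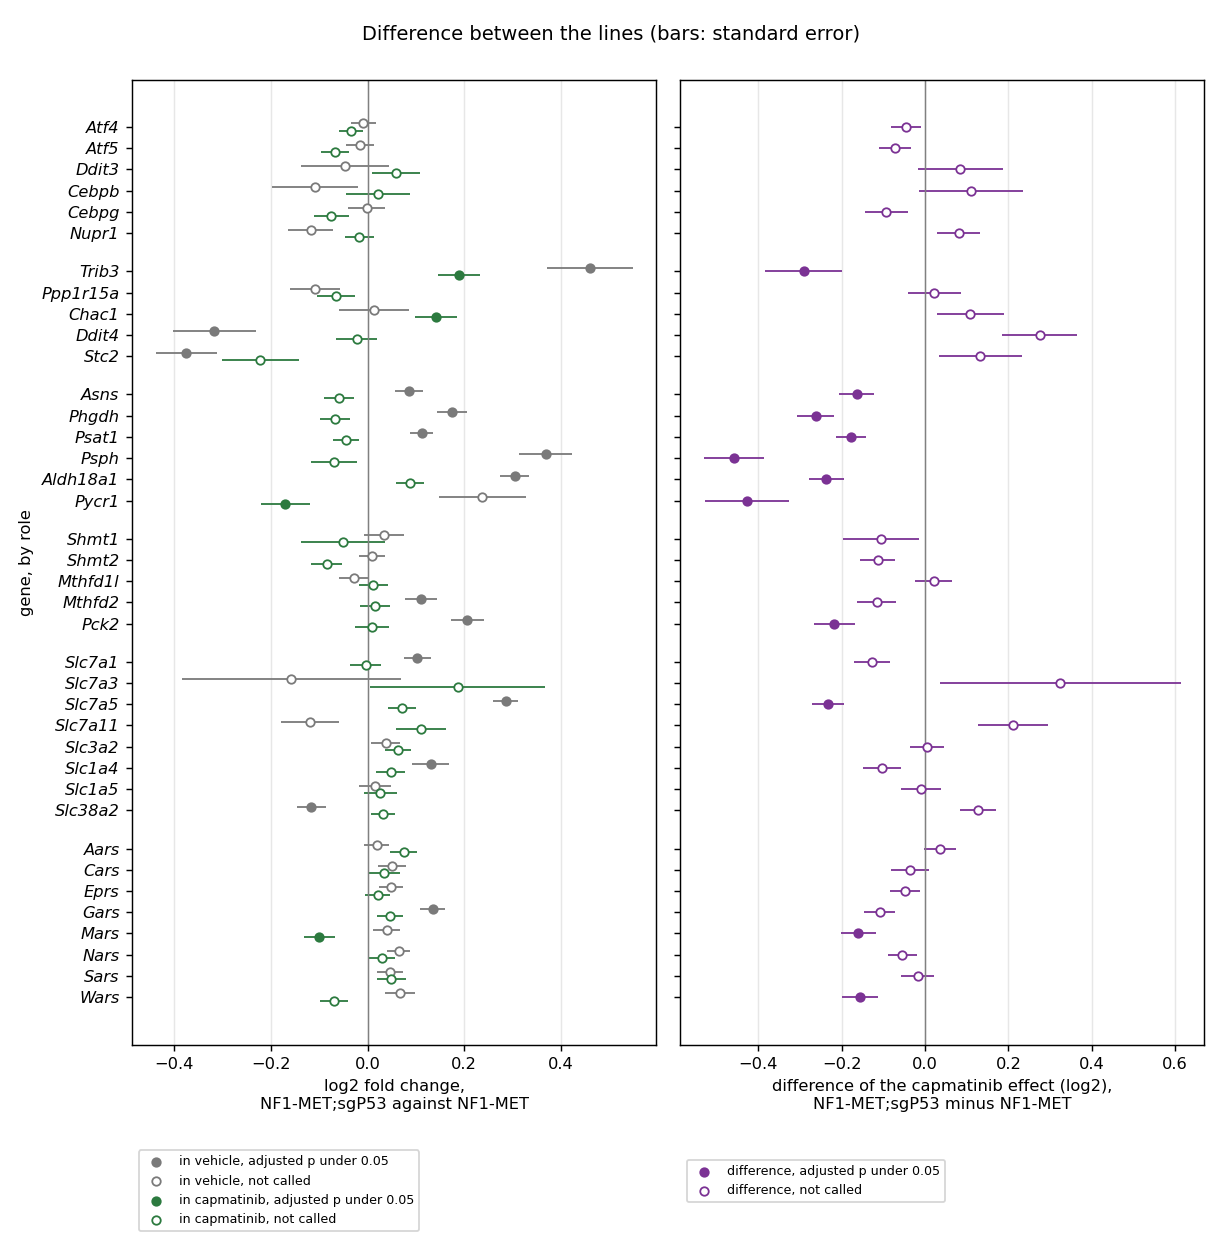
Left, log2 fold change of the 38 genes in NF1-MET;sgP53 against NF1-MET in vehicle (grey) and in capmatinib (green). Right, the difference of the capmatinib effect between the lines (log2, purple). Bars are standard errors and filled points passed an adjusted p of 0.05. The 6 synthesis genes all lie left of 0 in the right panel, between -0.46 and -0.16, and no point of that panel is filled with library totals, where Mars in capmatinib also moves above 0.

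The genes outside or inside the list whose pattern was most like that of Atf4, by Pearson r of log2 CPM over the 8 libraries among 8658 genes of at least 10 CPM, were Btg2 (r = 0.9993), Gpr153 (0.9992), Fat4 (0.999), F3 (0.999) and Atf5 (0.9989). Among the other 37 members r ran from -0.995 (Mthfd1l and Shmt1) to 0.999 (Atf5). These values describe 8 libraries that fall into a vehicle and a capmatinib cluster, and the part of each value within the clusters was not computed.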

How the data were processed

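RNA-seq covered the NF1-MET line and the NF1-MET;sgP53 line in vehicle or 100 nM capmatinib (24 h), with 2 replicates per condition, and all 8 libraries were used. The deposited values are raw counts per gene, which the authors made from poly(A) RNA by trimming reads (Trim Galore 0.4.2) and mapping and counting them with STAR 2.5.2b on mm10, per the labels and methods. The annotation and the strand of the counting were not given in the sources used here. Totals were 30.1 M to 42.8 M counts. Standard errors of fold changes hold both replicate spread and counting error, whose shares were not separated.

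A gene was kept if 2 or more libraries had 10 or more counts (14497 of 50600). Each comparison was fitted on its own libraries (the interaction on all 8) with TMM factors and edgeR 4.0.16's quasi-likelihood test in R 4.3.3, and p-values were adjusted by Benjamini-Hochberg across the whole table, with calls under 0.05. Standard errors are the size of the log2 fold change divided by the root of F. The 2 samples of each group were labelled biological replicates and were grown in wells of a plate. P-values rest on counting error and on variability between such samples that is shared over all genes. Whether the 2 came from separate experiments was not given, so p-values cannot be taken to cover the spread between experiments. CPM used TMM factors over 8 libraries, and FPKM used exon lengths of GENCODE M21, which held 50376 of the identifiers. Fits were tested on simulated data with 1 variability for all genes and few changed genes (196 of 14176 for capmatinib in NF1-MET). Scaling under a change of many genes was therefore not tested. Genes with few counts were recovered less often than others there, and for capmatinib in NF1-MET;sgP53 the false share of calls was above the threshold of 0.05.

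The members, roles and related lists were chosen with earlier results of these data known. Values in every library were given for the main members of each role and for the member of each role with the largest change in each comparison, and in each related list the called gene with the largest capmatinib change was named. Alternatives were DESeq2 1.42.0 size factors, library totals, DESeq2's Wald test, the bias-adjusted test, no low-count filter and a stricter one, the replicate number as a block, 1 model for all libraries, omission of Gm42418, and each library left out. Same-numbered replicates did not deviate together (r from -0.054 to 0.102 over 14497 genes), so the block was not used in the reported fits. A promoter window and a marker gene are not reported here.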

Additional observations from a re-analysis of the deposited data

Results flagged for a closer look

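The capmatinib effect differed between the lines for 11 of the 38 genes by edgeR's test of the difference itself. Over all genes 5.86% were called lower and 3.85% higher. Differences are given as the log2 effect in NF1-MET;sgP53 minus that in NF1-MET. The synthesis genes were Psph at -0.4576 (adjusted p = 9.04e-05), Pycr1 at -0.4275 (adjusted p = 0.00633), Phgdh at -0.2621 (adjusted p = 0.000238), Aldh18a1 at -0.2361 (adjusted p = 0.000297), Psat1 at -0.1765 (adjusted p = 0.00181) and Asns at -0.1635 (adjusted p = 0.0112). The others were Trib3 at -0.2909 (adjusted p = 0.0464), Slc7a5 at -0.2334 (adjusted p = 0.000166), Pck2 at -0.2171 (adjusted p = 0.00464), Mars at -0.1597 (adjusted p = 0.016) and Wars at -0.1556 (adjusted p = 0.023). With library totals the 11 calls were lost and the differences kept their direction, at -0.38 for Psph, -0.35 for Pycr1 and -0.18 for Phgdh. In Mars, Wars and Trib3 the call held in 8, 5 and 3 of 16 alternatives. For Psat1, Mars and Wars the difference was a larger fall in NF1-MET;sgP53, and Phgdh was called lower there and not called in NF1-MET. For the rest it was a smaller rise.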

How the results depend on the processing

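Each capmatinib change of the 38 genes over 0.2 on the log2 scale kept its direction in each alternative run, though library totals ended the calls of Slc38a2, Slc7a3, Aars and Eprs in NF1-MET and of Asns and Aars in NF1-MET;sgP53, and some smaller changes turned. With library totals in NF1-MET, 17 members were called higher, and Cebpg (-0.0817), Mthfd2 (-0.094), Slc7a1 (-0.0483), Gars (-0.0637), Nars (-0.1278, adjusted p = 0.0364) and Sars (-0.0785) were below 0. In NF1-MET;sgP53 they left 3260 genes higher, with Cebpg (-0.0954), Slc7a1 (-0.0981), Gars (-0.0932), Nars (-0.1031) and Sars (-0.0167) below 0. Between the lines, they left 743 genes and 1 member lower in vehicle, 537 genes higher, 129 lower and 0 members either way in capmatinib, with Mars at 0.0167, and 192 genes higher, 123 lower and 0 members lower in the interaction. These alternatives replace the scaling factors, which is the only step they change.

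DESeq2's Wald test called 826 genes higher, 1089 lower and 1 member lower between the lines in vehicle, 428 and 420 genes and 0 members either way in capmatinib, and 430 genes lower in the interaction. Without a low-count filter, 515 genes and 1 member were higher and 555 genes and 0 members lower between the lines in capmatinib. With all libraries in 1 model, 1 member was lower there. In the interaction, members called higher numbered 2 with DESeq2 size factors, 1 with the bias-adjusted test, 2 without the filter, 1 with the stricter filter and 2 without Gm42418, where 873 genes were higher and 7 members lower. With the replicate number as a block, 1 member was higher and 1 lower between the lines in capmatinib and 1 was higher in the interaction, and the block changed no other count of members or genes by over 1.5 times. Mthfd2 in NF1-MET;sgP53 was at 7e-04 with the stricter filter. The causes of these shifts were not tested.

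With each library left out, members higher and lower ranged over 24 to 26 and 8 to 9 for capmatinib in NF1-MET, 22 to 22 and 9 to 10 in NF1-MET;sgP53, 9 to 12 and 2 to 3 between the lines in vehicle, 1 to 3 and 0 to 4 in capmatinib, and 0 to 2 and 6 to 10 in the interaction. Over all genes the same counts were 4639 to 4892 and 4553 to 4756, 4539 to 4735 and 4469 to 4598, 1085 to 1372 and 1282 to 1587, 645 to 830 and 711 to 925, and 377 to 713 and 509 to 738. Between the lines in capmatinib, the members lower numbered 0 without NF1-MET capmatinib replicate 1, 1 without its replicate 2, 0 without NF1-MET;sgP53 capmatinib replicate 1 and 4 without its replicate 2. The library left alone in a group was assumed to vary like the others. Members whose direction turned when a library was left out are given by their range. These were Phgdh in NF1-MET (-0.0411 to 0.0074, above 0 without NF1-MET vehicle replicate 2) and, in NF1-MET;sgP53, Cebpg (-0.0107 to 0.0694), Mthfd2 (-0.0466 to 0.0323) and Slc7a11 (-0.1616 to 0.0368), which turned without vehicle replicate 1, and Slc7a1 (-0.0095 to 0.0519), which turned without capmatinib replicate 1. Mthfd2 was also at 2e-04 without capmatinib replicate 2.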
